A study of Homo sapiens with 6 samples.

Results

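The 10 genes followed here belong to the epithelial-mesenchymal transition (EMT) and were measured by RNA-seq in U2OS cells, an established human osteosarcoma line: the transcription factors SNAI1, SNAI2, TWIST1, TWIST2, ZEB1 and ZEB2, and the state markers VIM, CD44, EPCAM and S100A4. They were chosen by name as EMT factors and markers, with earlier results of these data known. All 10 have a row among the 50550 rows of the deposited tables. The study sequenced total RNA of 3 libraries titled Lv_LINC00673 and 3 titled Lv_NC, both from U2OS. The design text speaks of wild-type cells and of derivatives with LINC00673 knocked down, LINC00673 being a long intergenic noncoding RNA, and the labels do not spell out Lv or NC. Whether a group stands for several cultures, a clone or a pool of cells is not stated in the labels, so a p-value here reflects how far the libraries differ, and that difference may be technical. All values are of RNA, and in bulk samples fewer cells of a kind and less RNA per cell cannot be told apart.

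EMT is the programme by which epithelial cells lose their junctions and polarity and take on a motile, fibroblast-like state. Its core factors are zinc-finger repressors of the SNAI and ZEB families and basic helix-loop-helix proteins of the TWIST family. They bind E-box sequences, CANNTG, and the SNAI and ZEB repressors prefer CAGGTG, which reads CACCTG on the other strand. ZEB1 and ZEB2 are themselves held down by microRNAs of the miR-200 family. A sarcoma line is mesenchymal by origin, so these genes need not mark a departure from an epithelium here. Where these cells lie between the epithelial and mesenchymal states was not tested.

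Of all genes, 21933 had enough counts to be tested, and 26.8% of them were called, which means an adjusted p under 0.05 (quasi-likelihood test of edgeR, Benjamini-Hochberg adjustment), with 14.3% higher and 12.5% lower in Lv_LINC00673. LINC00673 itself had 479, 417 and 435 counts in Lv_LINC00673 and 709, 751 and 516 in Lv_NC, or 6.54, 6.23 and 6.38 against 9.16, 9.27 and 7.07 CPM, counts scaled to the library size with TMM factors. The groups did not overlap in counts or CPM but overlapped in FPKM (2.82, 2.73 and 2.80 against 3.53, 3.46 and 2.75), and its log2 fold change of -0.41 (SE 0.16) missed the threshold at an adjusted p of 0.0924, so groups are called here by their titles. Total counts were 61815841 to 71237493 in Lv_LINC00673 and 76814723 to 87227980 in Lv_NC. Across 11908 genes, which are not independent replicates, the fold change correlated with the GC content of the transcript at a Spearman rho of -0.509 and with its length at 0.456. Results are therefore given also after an offset for GC and length. That fit called 5477 of 18510 genes, 29.6%, with 15.3% higher and 14.3% lower in Lv_LINC00673. What sets that slope was not tested. LINC00673 was at -0.16 with the offset (SE 0.14, adjusted p 0.436). Of osteoblast markers, 7 of 12 averaged at least 1 CPM, with SP7, DLX5 and IBSP near 0. Their sum was 680 to 786 CPM in Lv_LINC00673 and 769 to 851 in Lv_NC. It is mostly SPARC, which fell, and COL1A1, which did not pass the test. Of the 8 tested osteoblast genes 2 rose and 2 fell, and the median log2 fold change was 0.44. Of epithelial markers 5 of 12 averaged at least 1 CPM, with KRT8 and KRT18 abundant and GRHL2, ELF3 and KRT19 near 0. Their sum was 2408 to 2887 against 3458 to 3783 CPM. That sum is mostly KRT8 and KRT18, which fell, while of the 9 tested genes of the list MUC1 rose, 6 did not pass the test and the median log2 fold change was 0.25. Of blood markers 1 of 12 reached 1 CPM, with LYZ and HBB at 0. Of endothelial markers 3 of 8 did, with EMCN at 0 and sums of 10.9 to 13.5 against 9.07 to 10.3 CPM, and of neural and muscle markers 6 of 10 did. The part of these cell types in the results was not tested.

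Of the EMT genes, 2 rose in Lv_LINC00673, ZEB1 and VIM, and 3 fell, SNAI1, TWIST2 and CD44. SNAI2, EPCAM and S100A4 did not pass the test, and TWIST1 and ZEB2 had too few counts to be tested. The 5 calls were 62.5% of the 8 genes tested, beside 26.8% of all genes. In 6 of the 10 genes, those 5 and SNAI2, the groups did not overlap in counts, CPM or FPKM. FPKM is the deposited level per transcript length and library size. All 6 are among the 8 tested. In CPM the groups did not overlap for 45.1% of all genes tested, 23.7% higher and 21.4% lower. Such a share is not given for counts or FPKM, and raw counts also carry the deeper sequencing of Lv_NC. The directions differed among the factors, with ZEB1 higher and SNAI1 and TWIST2 lower, and between the abundant markers, with VIM higher and CD44 lower.

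**Figure D1:**
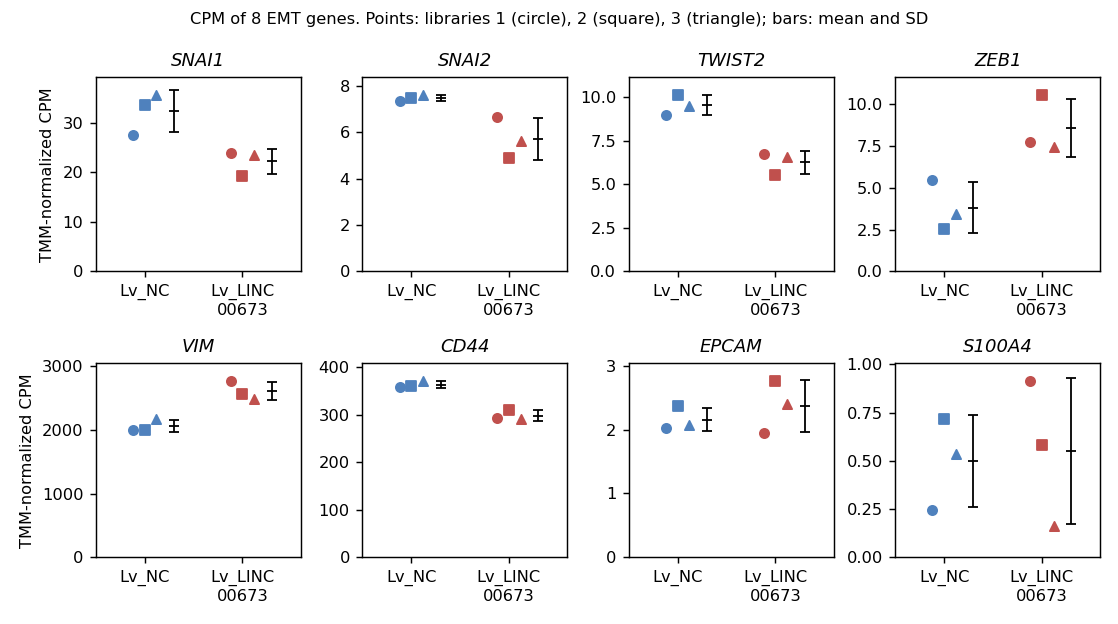
TMM-normalized CPM of the 8 tested EMT genes in each library, with Lv_NC on the left and Lv_LINC00673 on the right of each panel; points are libraries and bars are the mean and SD of 3. The groups do not overlap for SNAI1, SNAI2, TWIST2, ZEB1, VIM and CD44, and they overlap for EPCAM and S100A4.

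Levels between genes can be compared per length. By mean FPKM over the libraries the order was VIM, CD44, SNAI1, TWIST2, SNAI2, EPCAM, ZEB1, S100A4, ZEB2 and TWIST1. A numbered copy row of TWIST2, at 4.94 FPKM in Lv_LINC00673 and 6.63 in Lv_NC, was left out of this order. VIM averaged 1377 ± 76.2 FPKM in Lv_LINC00673 and 998 ± 53.4 in Lv_NC (SD, n = 3 each), and CD44 71.0 ± 3.86 and 77.5 ± 2.02. The 4 factors tested were lower, from 13.3 ± 1.28 and 17.2 ± 2.16 FPKM for SNAI1 down to 1.47 ± 0.327 and 0.578 ± 0.245 for ZEB1, and below them ZEB2 was at no more than 0.0205 FPKM in a library and TWIST1 at 0. Neighbours in the order overlapped for EPCAM and ZEB1 in Lv_LINC00673, for ZEB1 and S100A4 in both groups, and for ZEB2 and TWIST1 in Lv_NC. The others were separated in both groups.

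**Figure D2:**
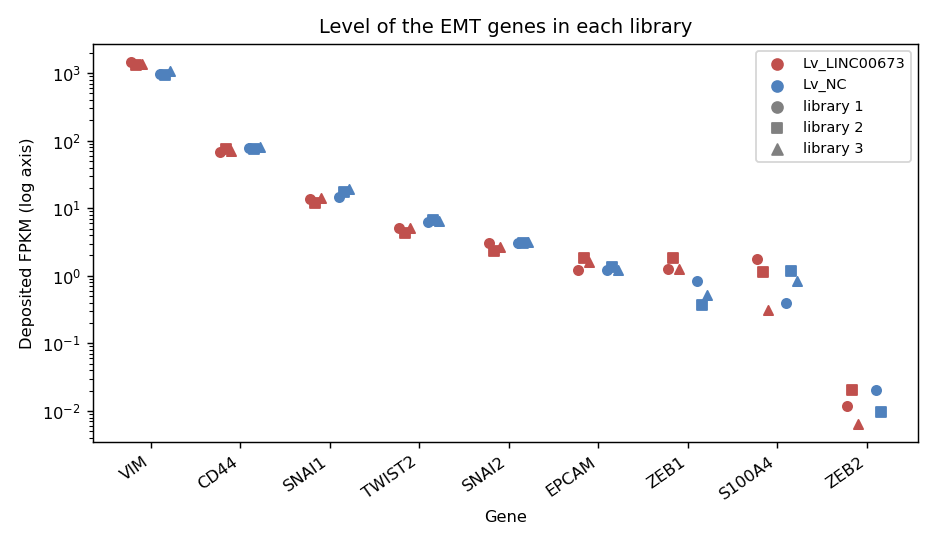
Deposited FPKM (log axis) of 9 EMT genes in each library, red for Lv_LINC00673 and blue for Lv_NC. TWIST1, at 0 in all 6 libraries, and ZEB2 in Lv_NC library 3, also 0, have no point; the levels run from 1458 for VIM to 0.0065 for ZEB2.

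For the 2 genes that rose, the 250 bases before a RefSeq start site are shown (GRCh38.p14, plus strand, 5′ to 3′, E-boxes in capitals). Both lie on chromosome 10, at chr10:31318167-31318416 for the most upstream of 7 ZEB1 starts and at chr10:17227991-17228240 for VIM. The ZEB1 window lies inside the span of ZEB1-AS1, which is transcribed from the opposite strand. The VIM window likewise lies inside the span of VIM-AS1, its antisense gene.
ZEB1: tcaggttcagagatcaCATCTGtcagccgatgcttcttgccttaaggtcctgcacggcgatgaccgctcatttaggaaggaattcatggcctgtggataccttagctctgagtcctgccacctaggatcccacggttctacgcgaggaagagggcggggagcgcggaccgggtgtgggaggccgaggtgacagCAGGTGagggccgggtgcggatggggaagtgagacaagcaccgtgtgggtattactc
VIM: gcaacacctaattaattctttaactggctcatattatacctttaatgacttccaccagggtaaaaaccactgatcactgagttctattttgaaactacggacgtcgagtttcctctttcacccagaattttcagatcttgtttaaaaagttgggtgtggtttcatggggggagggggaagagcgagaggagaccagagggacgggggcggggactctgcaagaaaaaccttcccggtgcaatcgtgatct
The ZEB1 window holds CATCTG, with its first base 234 bases before the start, and CAGGTG 57 bases before it. The VIM window holds no CANNTG. Of 34788 promoter windows of this length in the RefSeq table, 61.8% hold a CANNTG on either strand and 17.5% hold CAGGTG or CACCTG, which are cases of CANNTG. Entries were matched for 6 of the 10 genes, with 12 windows in all. Of the 7 ZEB1 windows, 4 held a CANNTG and 2 of these CAGGTG or CACCTG. CD44 and TWIST2 held no CANNTG, S100A4 held 1 CACCTG and ZEB2 1 CACATG. SNAI1, SNAI2, TWIST1 and EPCAM had no entry. A match in a window is a description of the letters and does not show a bound site.

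SNAI1 (chr20:49982980-49988886), the Snail repressor that silences E-cadherin, fell in Lv_LINC00673. It had 1746, 1293 and 1607 counts in the Lv_LINC00673 libraries and 2131, 2728 and 2599 in Lv_NC. This was 23.9, 19.3 and 23.6 CPM against 27.5, 33.7 and 35.6. Every Lv_LINC00673 library was below every Lv_NC library, with library 2 the lowest and Lv_NC library 1 the nearest to it from above. The log2 fold change was -0.54 (SE 0.14, adjusted p 0.0252), a fold of 0.689 with a 95% interval of 0.551 to 0.862. The call was lost with the GC and length offset, where the change was -0.14 (SE 0.10, adjusted p 0.355), with scaling by library totals (0.0798), on log2(FPKM + 1) (0.0744) and when library 2 or 3 of either group was left out (0.0648 to 0.0957). The direction was the same in all 17 alternatives.

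SNAI2 (chr8:48917598-48921429), which encodes Slug, a close relative of Snail, did not pass the test. It had 489, 327 and 383 counts in Lv_LINC00673 and 570, 606 and 556 in Lv_NC, which was 6.68, 4.88 and 5.62 CPM against 7.36, 7.48 and 7.62. The Lv_NC libraries lay close together and above every Lv_LINC00673 library. The log2 fold change was -0.39 (SE 0.17, adjusted p 0.119), with an interval of the fold of 0.589 to 0.994. With the GC and length offset it was -0.61 (SE 0.20) and passed at an adjusted p of 0.0494, and it also passed without Lv_LINC00673 library 1, at -0.53 and the same p.

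TWIST1 (chr7:19113047-19117636), a regulator of mesoderm and skeletal development, had 0 counts in all 6 libraries, which allows up to 0.0370 to 0.0448 CPM at 3 counts a library (counting error only). TWIST2 (chr2:238848085-238910534), its paralog, was counted and fell. It had 491, 369 and 447 counts in Lv_LINC00673 and 694, 821 and 694 in Lv_NC, or 6.71, 5.51 and 6.55 against 8.96, 10.1 and 9.51 CPM. The groups did not overlap, and Lv_LINC00673 library 2 was again the lowest. The log2 fold change was -0.61 (SE 0.15, adjusted p 0.0212), a fold of 0.656 with an interval of 0.516 to 0.835. A numbered copy row of TWIST2 held almost the same counts (506, 378 and 451 against 709, 819 and 709) and gave -0.60, so how reads were assigned between both rows is uncertain. With the GC and length offset the change was -0.19 (SE 0.11, adjusted p 0.234), and the call was also lost with library totals (0.0589) and when library 2 or 3 of either group was left out (0.0625 to 0.0714).

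ZEB1 (chr10:31318417-31529804), a large zinc-finger and homeodomain repressor, rose in Lv_LINC00673, with the largest fold change among the 8 EMT genes tested in the fit without the offset. It had 565, 706 and 507 counts in Lv_LINC00673 and 424, 204 and 249 in Lv_NC, although the former libraries were shallower. This was 7.72, 10.5 and 7.43 CPM against 5.48, 2.52 and 3.41. The highest value was in Lv_LINC00673 library 2, the library lowest for SNAI1, SNAI2 and TWIST2, and the Lv_NC library nearest to the other group was library 1. Its log2 fold change was 1.17 (SE 0.29, adjusted p 0.0199), a fold of 2.25 with an interval of 1.43 to 3.56. The transcript is long, at 6267 bases, and low in GC, at 38.5%, and with the GC and length offset the change was 0.53 (SE 0.19) and missed the threshold at an adjusted p of 0.0631. The call was also lost without Lv_LINC00673 library 2 (0.98, adjusted p 0.0746) and without Lv_NC library 3 (1.09, adjusted p 0.0788), and the direction was the same in all 17 alternatives.

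ZEB1-AS1, the divergent antisense RNA of ZEB1, overlaps it by 2031 bases, and since no source used here gives the strand setting of the counting, reads in the overlap cannot be told apart. It had 745, 686 and 495 counts in Lv_LINC00673 and 640, 742 and 580 in Lv_NC, with a log2 fold change of 0.13 (adjusted p 0.643). The rows of the miR-200 hosts and hairpins, chosen after their values were seen, held almost nothing: MIR200CHG and MIR141 had 5 counts in Lv_LINC00673 library 2 and 0 elsewhere, and MIR200A, MIR200B, MIR200C and MIR429 had 0. Mature microRNAs were not measured. ZEB2 (chr2:144384081-144520119), the relative of ZEB1, had 9, 13 and 5 counts in Lv_LINC00673 and 17, 9 and 0 in Lv_NC, and was too low to test. Its antisense gene ZEB2-AS1 had 0 counts in every library.

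VIM (chr10:17228241-17237593) encodes vimentin, the main intermediate filament protein of mesenchymal cells, and rose in Lv_LINC00673. It ranked 27 among all rows by mean CPM, which is not per length. It had 202536, 171296 and 169657 counts in Lv_LINC00673 and 154730, 161914 and 158016 in Lv_NC. This was 2767, 2558 and 2488 CPM against 1998, 1998 and 2166, without overlap. Lv_LINC00673 library 1 was the highest, and Lv_NC library 3 the nearest to the other group. VIM changed by 0.34 on the log2 scale (SE 0.08, adjusted p 0.0140), a fold of 1.27 with an interval of 1.12 to 1.43. With the GC and length offset it was larger, at 0.65 (SE 0.05, adjusted p 0.000324). The call was lost without Lv_LINC00673 library 2 (adjusted p 0.0534) and without Lv_NC library 2 (0.0557). VIM-AS1, which overlaps VIM by 1745 bases, had at most 676 counts in a library and a log2 fold change of -0.19 (adjusted p 0.777).

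CD44 (chr11:35139171-35232402), the hyaluronan receptor used as a marker of mesenchymal and stem-like states, fell slightly in Lv_LINC00673. It had 21435, 20775 and 19845 counts in Lv_LINC00673 and 27673, 29248 and 27058 in Lv_NC, or 293, 310 and 291 against 357, 361 and 371 CPM. The libraries of each group lay close together and the groups did not overlap. Its log2 fold change was -0.28 (SE 0.07, adjusted p 0.0237), a fold of 0.821 with an interval of 0.730 to 0.922. With the offset it was -0.61 (SE 0.08, adjusted p 0.00161). In the other direction, scaling by library totals brought it to -0.12 (adjusted p 0.236) and log2(FPKM + 1) to -0.13 (adjusted p 0.239), and the call was also lost without library 3 of either group or Lv_NC library 2 (0.0678 to 0.0975). Gene counts do not resolve the standard and variant exons by which CD44 isoforms differ.

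EPCAM (chr2:47369311-47387020), an adhesion protein of epithelial cells, was low and not called. It had 143, 185 and 164 counts in Lv_LINC00673 and 157, 192 and 151 in Lv_NC, or 1.95, 2.76 and 2.40 against 2.03, 2.37 and 2.07 CPM. The groups overlapped, with Lv_LINC00673 library 1 the lowest of all. The log2 fold change was 0.14 (SE 0.21, adjusted p 0.669), and the interval of the fold, 0.789 to 1.54, leaves room for a difference of either sign. S100A4 (chr1:153543621-153545806), a calcium-binding protein also called fibroblast-specific protein, had 67, 39 and 11 counts in Lv_LINC00673 and 19, 58 and 39 in Lv_NC. At 0.915, 0.582 and 0.161 against 0.245, 0.716 and 0.535 CPM it varied more within groups than between them. S100A4 had a log2 fold change of 0.15 (SE 0.63, adjusted p 0.885), with an interval of the fold of 0.411 to 3.00, which holds changes in either direction.

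**Figure D3:**
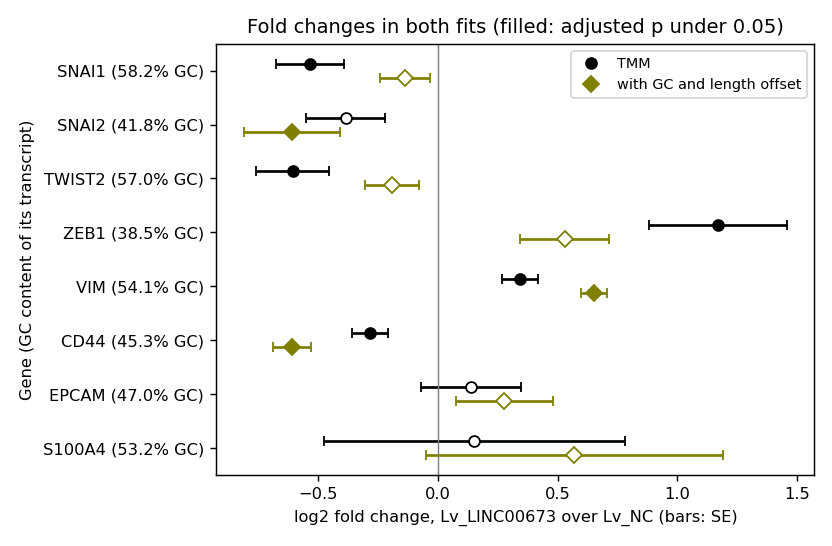
Log2 fold changes, Lv_LINC00673 over Lv_NC, of the 8 tested EMT genes with TMM scaling alone (circles) and with the GC and length offset (diamonds); bars are SE and filled symbols passed an adjusted p of 0.05. VIM and CD44 pass in both fits, SNAI1, TWIST2 and ZEB1 only without the offset, and SNAI2 only with it.

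The calls among the EMT genes thus differed between both fits. The offset fit called 3 of the 8 (37.5%, beside 29.6% of all genes), VIM higher and SNAI2 and CD44 lower, and all 8 kept their direction in it. With library totals in place of TMM, which raised the median log2 fold change of all genes from 0.05 to 0.22, 2 of the 8 were called (25%, beside 24% of all genes), ZEB1 and VIM, both higher. Either share is near that of all genes. Over all genes the calls split 3145 higher and 2738 lower with TMM and 4049 and 1225 with library totals, and on log2(FPKM + 1) they split 3522 and 1220, with ZEB1 and VIM higher and TWIST2 lower among the EMT genes (37.5%, beside 21.6% of all genes).

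The ratio of one gene to another within a library does not depend on the library total, but it carries the GC and length slope. The FPKM of ZEB1 over that of SNAI1 was 0.0926, 0.156 and 0.0902 in Lv_LINC00673 and 0.0570, 0.0209 and 0.0270 in Lv_NC, a difference of 1.78 on the log2 scale. The ratio was higher in every Lv_LINC00673 library. The same held for ZEB1 over SNAI2, with a log2 difference of 1.64, and for ZEB1 over TWIST2, with 1.85. VIM over CD44 was 21.6, 17.4 and 19.5 against 12.8, 12.6 and 13.3, a log2 difference of 0.59, also without overlap, and CD44 over EPCAM was lower in every Lv_LINC00673 library, by a log2 difference of -0.42. The ratios of SNAI1 to SNAI2 (-0.14), SNAI1 to TWIST2 (0.07) and VIM to EPCAM (0.17) overlapped. In two-sided exact permutation tests of the 8 ratios, the 5 without overlap each had p = 0.1, the smallest that 3 against 3 libraries allow, and 0.16 after Benjamini-Hochberg adjustment, so none could pass. From the fitted fold changes of counts, the log2 differences of ZEB1 to SNAI1 (1.71) and to TWIST2 (1.78) became 0.67 and 0.72 with the GC and length offset, and that of ZEB1 to SNAI2 went from 1.56 to 1.14. The difference of VIM to CD44 went from 0.63 to 1.26, that of CD44 to EPCAM from -0.42 to -0.89 and that of VIM to EPCAM from 0.20 to 0.38, while that of SNAI1 to SNAI2 turned from -0.15 to 0.47. Over all 6 libraries SNAI1 over TWIST2 lay between 2.37 and 2.91. Ratios to TWIST2 leave out its numbered copy row, so their size depends on how reads were assigned between both rows.

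**Figure D4:**
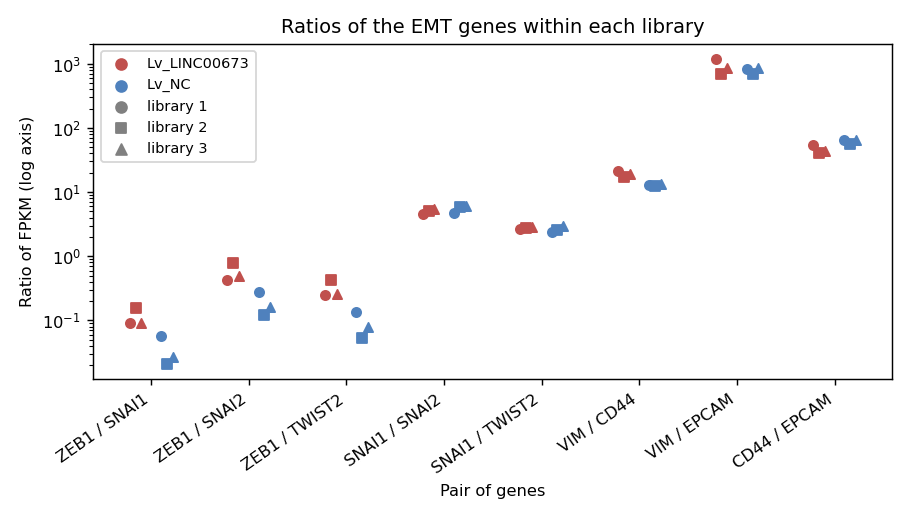
Ratio of FPKM (log axis) of 8 pairs of EMT genes within each library, red for Lv_LINC00673 and blue for Lv_NC, with a symbol for each library number. The 3 ratios of ZEB1 to another factor and VIM over CD44 are higher in every Lv_LINC00673 library, CD44 over EPCAM is lower in each, and the other 3 overlap.

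For each tested member, the gene with the most similar pattern of log2 CPM over the 6 libraries was found by Pearson r among about 10949 genes. It was GABARAP for SNAI1 (r 0.997), PNKD for SNAI2 (0.9995), TSPAN14 for TWIST2 (0.999), RAD18 for ZEB1 (0.999), NPIPB5 for VIM (0.996), ATP6V0A2 for CD44 (0.998), UBE2V1 for EPCAM (0.930) and MACROH2A2 for S100A4 (0.995). With 6 points high values can arise for many genes, and the part of shared depth and GC slope was not tested. The genes above 0.98 numbered 377 for TWIST2, 313 for ZEB1, 61 for SNAI2, 51 for SNAI1, 43 for CD44, 15 for VIM, 3 for S100A4 and 0 for EPCAM.

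Other EMT-promoting transcription factors moved in both directions. Of 15 tested, 3 rose and 3 fell, with a median log2 fold change of -0.12 beside 0.05 over all genes. TCF12, an E-protein that pairs with TWIST proteins, rose from 14.4 ± 4.36 to 30.5 ± 4.66 CPM (log2 1.09, adjusted p 0.0103), and TEAD1, the DNA-binding partner of YAP, rose by 1.02 and was not called without Lv_NC library 3 (adjusted p 0.0577). HMGA2, a chromatin architectural protein, rose from 75.1 ± 5.36 to 107.5 ± 6.85 CPM (0.52), but was at -0.25 with the offset (adjusted p 0.200). With the offset 2 of the 15 were higher and 1 lower, and TCF12 (0.51) and TEAD1 (0.34) were still called at smaller changes. Of 12 EMT-restraining factors tested, 1 fell, CDX2 (-0.75, adjusted p 0.0138), an intestinal homeobox factor at 4.04 against 6.81 CPM, whose call was lost without Lv_LINC00673 library 2 (0.0516) or Lv_NC library 3 (0.0561).

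Among the corepressors and chromatin proteins with which SNAI and ZEB factors work, 6 of 18 rose and 1 fell, 11 did not pass the test, and the median log2 fold change was -0.03. BMI1, a Polycomb protein, rose from 12.6 ± 2.90 to 33.7 ± 7.05 CPM (1.41, adjusted p 0.00499), SUZ12, a subunit of the other Polycomb complex, by 1.24, and SIN3A, the scaffold of a deacetylase complex, by 1.17. The deacetylase HDAC2 rose by 0.79 but was at -0.04 with the offset, and its call was lost when library 2 or 3 of either group was left out (0.0626 to 0.103). With the offset, 5 of the 18 were higher and 4 lower, and SUZ12 was at 0.64 (adjusted p 0.00811). Of 18 regulators of the factors' protein stability, 5 rose and 2 fell, against 3 and 6 with the offset. ATM, the damage kinase, rose from 5.94 ± 2.62 to 16.8 ± 3.94 CPM (adjusted p 0.0105), COPS2, a COP9 signalosome subunit, by 1.34, the ubiquitin ligase MDM2 by 0.94 and the deubiquitinase USP28 by 0.89. With the offset ATM was at 0.66, COPS2 at 0.59 and USP28 at 0.54, all still called. MDM2 was at 0.18 with the offset (adjusted p 0.220), and USP28 was not called without library 3 of either group or Lv_LINC00673 library 2 (at most 0.0734).

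The state lists around the markers were mixed. Of 25 mesenchymal genes tested besides the members, 5 rose and 4 fell, with the same counts under the offset. FN1, the matrix protein fibronectin, rose from 321 ± 57.0 to 919 ± 175 CPM (1.52, adjusted p 0.00256; 1.28 with the offset), FBN1, fibrillin, by 1.39 and ITGAV, an integrin chain, by 1.06. ITGAV was at 0.35 with the offset (adjusted p 0.0352) and was not called without library 3 of either group or Lv_LINC00673 library 2 (0.0531 to 0.0568). TAGLN, an actin-binding protein of contractile cells, fell from 122.7 ± 3.23 to 50.1 ± 5.30 CPM (-1.29, adjusted p 0.000836; -0.96 with the offset). Of 24 epithelial junction and state genes, 5 rose and 2 fell, against 7 and 3 with the offset. The 2 that fell were the keratins KRT8 and KRT18, and no junction gene was called lower without the offset. The scaffolds TJP1, PALS1 and PATJ were higher by 1.21, 1.17 and 0.85 and the mucin MUC1 by 0.81. With the offset TJP1 was at 0.76 and PALS1 at 0.59. TJP1 has numbered copy rows, so its reads may be divided between rows, PATJ was not called with the offset (0.31, adjusted p 0.162) or when library 2 or 3 of either group was left out (0.0908 to 0.124), and MUC1 was not called without library 3 of either group or Lv_LINC00673 library 2 (0.0559 to 0.0674). Of 12 intermediate filament and lamin genes besides VIM, NEFL, a neurofilament chain, rose (0.52) and LMNB2, a B-type lamin, fell (-0.34). LMNB2 was not called when library 2 or 3 of either group was left out (0.0547 to 0.0682).

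Genes around CD44 moved in both directions. Of 20 genes of its ligands, linkers and processing, 5 rose and 4 fell, with a median of 0.26. ANK3, an ankyrin linker, rose from 1.23 ± 0.262 to 4.85 ± 0.252 CPM (1.98, adjusted p 0.00256), HAS2, a hyaluronan synthase, from 0.908 ± 0.306 to 2.82 ± 0.844 CPM (1.64), the hyaluronan-binding HMMR by 1.56 and the cortical linker radixin, RDX, by 1.23. With the offset ANK3 was at 1.23, HAS2 at 1.06 and RDX at 0.66, all called. RDX was not called without Lv_LINC00673 library 2 (0.0503) or Lv_NC library 3 (0.0545). Of 8 EPCAM partners, BACE1, a protease that can cleave it, rose (0.63) and FHL2 (-0.61) and the tetraspanin CD9 (-0.40) fell. BACE1 was not called without Lv_LINC00673 library 3 (0.0628) or Lv_NC library 3 (0.0617). Of 13 genes tested in the S100 list, which also holds the S100P-binding protein gene S100PBP, 1 fell, S100A16 (-0.42). S100A16 was at 0.01 with the offset and not called without Lv_LINC00673 library 3 (0.0526). The offset called 3 of the 13 higher. Of 10 S100A4 partners, 2 rose and 4 fell: TLR4 (1.04) and the liprin PPFIBP1 (1.03) were higher, and the myosin light chains MYL9 (-0.74) and MYL12A (-0.43) were among the lower. With the offset TLR4 was at 0.17 (adjusted p 0.248), PPFIBP1 at 0.54 and MYL9 at -0.45, the last 2 still called.

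**Figure D5:**
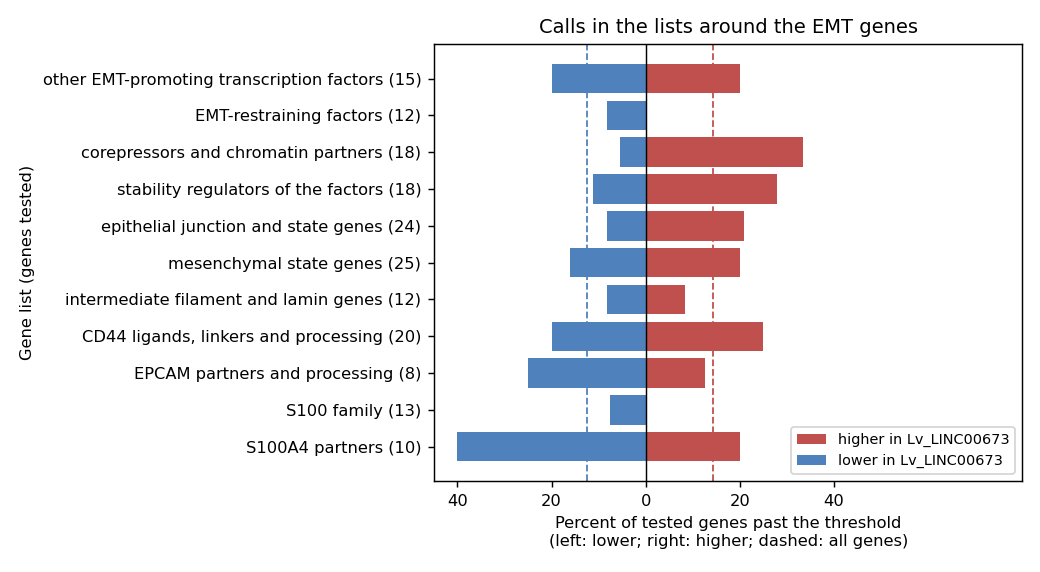
Percent of tested genes past an adjusted p of 0.05 in 11 gene lists around the EMT genes, higher in Lv_LINC00673 to the right and lower to the left; the number tested stands beside each name and dashed lines mark the share over all genes, 14.3% higher and 12.5% lower. In the fit without the GC and length offset shown here, 6 of 18 corepressors were called higher and 4 of 10 S100A4 partners lower, against 5 and 3 with the offset.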

How the data were processed

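Total RNA of 6 U2OS libraries, 3 in each group by title, was sequenced. The authors deposited whole-number read counts per gene, not normalized, and FPKM values per gene. Per the submitters' processing notes the build was hg38. The FPKM tool, strand setting, annotation, counter and aligner are not named in those sources. Rows without a gene symbol (6056, holding 3.22 to 4.26% of counts) stayed in the library sizes and tests and are not named.

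Genes kept by filterByExpr entered the robust, two-sided quasi-likelihood test of edgeR 4.0.16 (R 4.3.3) after TMM scaling, with Benjamini-Hochberg adjustment over all 21933 genes. SE is the log2 fold change over the square root of F, intervals are at 95%, and CPM is given as mean ± SD of 3 libraries. Floors follow from the scaled library totals and cover counting error only. The script was tested on simulated data. The members and lists were chosen with earlier results of these data known. From each list up to 4 genes past the threshold with the largest change and at least 1 CPM are named, besides the members and their antisense genes; a gene chosen by this rule is not reported here.

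Alternatives were size factors, library totals, other filters, DESeq2 1.42.0, limma 3.58.1 (voom, and log2(FPKM + 1) or log2(FPKM + 0.1), a scale that understates changes of low genes), a replicate block, a spline offset of GC and length from GENCODE v29 transcripts, numbered copy rows summed, and leaving out each library. Coordinates and promoters are 1-based from RefSeq GRCh38.p14. Replicates of a group differed beyond sampling noise, so no library was counted as a repeat of another.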

Additional observations from a re-analysis of the deposited data

How the results depend on the processing

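Over the 17 alternatives, 98 of 135 values of the tested members kept their direction and side of the threshold, 30 lost the call, 2 gained it and 5 reversed. All 5 reversals were in genes that were not called: EPCAM ranged from -0.0021 (without Lv_LINC00673 library 2) to 0.25 without a library each, and S100A4 from -0.44 (without Lv_LINC00673 library 1; -0.18 without Lv_NC library 1) to 0.57, and S100A4 was at -0.0178 with limma-voom and -0.0216 with the replicate block. Among other named genes, HMGA2 (-0.25), HDAC2 (-0.0354) and S100A16 (0.0144) reversed with the GC and length offset, and 650 of 764 values were the same. CDH1, not called, ranged from -0.16 (without Lv_LINC00673 library 2) to 0.52. Of the 45 other named genes, 28 kept their side of the threshold without each library in turn. The 5 members called became 2 with library totals, 3 with either FPKM scale, 3 with the offset, and 1 to 6 without a library each. All genes called, 5883, ranged from 2716 to 6490 and genes called in the lists, 64, from 39 to 69 without a library each, and DESeq2 called 7116. The replicate block left 1208 genes called over all, 12 in the lists and 0 of the members (edgeR; 5 of the 8 had an unadjusted p under 0.05). Same-numbered libraries did not deviate together (correlations -0.42, -0.36 and 0.04), and differently numbered libraries of the 2 groups ranged from -0.14 to 0.45. Such correlations cannot show whether libraries were paired by design, which the labels do not state. The cause of the changes between settings was not tested. The lowest counts were those of S100A4, which varied widely between libraries, and of ZEB2 and TWIST1, which were too low to test.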

Other observations

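Genes of the osteoblast lineage, from which this tumour type arises, did not move one way: of 8 tested, 2 were higher in Lv_LINC00673 and 2 lower. RUNX2, the master factor of osteoblasts, rose from 1.83 ± 0.138 to 4.35 ± 1.25 CPM (log2 1.25, adjusted p 0.00921, edgeR; 0.79 with the GC and length offset), and ALPL, the alkaline phosphatase of mineralizing cells, to 21.2 ± 2.51 CPM, by 0.50 (adjusted p 0.0278; 0.81 with the offset), a call that was lost without any of the 6 libraries (0.0558 to 0.0755). MSX2, a homeobox factor of bone and tooth, fell by 0.79 and SPARC, the bone matrix protein osteonectin, by 0.36, the latter not called without library 3 of either group or Lv_LINC00673 library 2 (0.0539 to 0.0643).

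The simple-epithelium keratins KRT8 and KRT18, abundant in these cells, both fell. KRT8 was at 1712 ± 190 CPM in Lv_LINC00673 and 2351 ± 139 in Lv_NC (-0.46, adjusted p 0.0115; -0.19 with the offset), and was not called without Lv_LINC00673 library 3 (0.0540). KRT18 was at 871.6 ± 56.3 and 1207 ± 97.2 CPM (-0.47, adjusted p 0.00860), and at -0.08 with the GC and length offset (adjusted p 0.340). CDH1, the E-cadherin gene that SNAI1 and ZEB1 repress in epithelia, was at 0.779 CPM in Lv_LINC00673 and 0.639 in Lv_NC and did not pass the test (adjusted p 0.642). CDH2, N-cadherin, rose from 19.5 to 28.8 CPM (0.56, adjusted p 0.0247; 0.32 with the offset), and was not called when library 2 or 3 of either group was left out (0.0652 to 0.0990). Both cadherins were chosen after their values were seen.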
